A study of Homo sapiens with 12 samples.

Results

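The cytosolic HSP40, HSP70 and HSP90 chaperone machinery was followed through 10 listed genes on 12 arrays of Calu-3, an established line of human airway epithelial cells. The members were chosen by name: the HSP40 genes DNAJB1, DNAJA1 and DNAJA2, the HSP70 gene HSPA8, the HSP110 gene HSPH1, the HSP90 genes HSP90AA1 and HSP90AB1, and the HSP90 or HSP70 partners CHORDC1, AHSA1 and STUB1. Of these 10 genes, 9 had a probe set that carried 1 gene symbol, out of 18417 genes measured in this way, and AHSA1 was not analysed here. Each of the 9 had exactly 1 such probe set, so no choice between probe sets bore on its values.

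SIN3A siRNA was transfected on 3 arrays, a miR-138 mimic on 3 arrays and NC1, a scrambled control oligonucleotide, on 6 arrays numbered 1 to 6. SIN3A encodes a scaffold of a histone deacetylase corepressor complex, and miR-138 is a microRNA. All groups, the control included, received their oligonucleotide by the same lipid carrier, lipofectamine RNAiMAX, and no array held cells left without a transfection. The series is a study of CFTR, the chloride channel of the airway, and it uses 1 cell line, so the spread describes cultures of that line. The labels call the arrays biological replicates without saying whether they were separate cultures, and the p-values measure only the spread between these arrays. The cell line given is Calu-3, although the wording on RNA extraction mentions primary cultures, and neither doses nor times were given in the sources used here.

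Cytosolic folding runs as a relay. HSP40 proteins bind unfolded chains, hand them to HSP70 and stimulate its ATPase, HSP110 releases the nucleotide so that HSP70 can let go, and HSP90 with its co-chaperones takes over late folding steps. For CFTR, HSC70 (HSPA8) with DNAJA1 acts on the cytosolic domains of the growing channel, HSP90 and its ATPase activator AHSA1 act on its later folding, and the ubiquitin ligase CHIP (STUB1) with HSC70 directs misfolded channel to degradation. Many of these genes are targets of heat shock factor 1, which binds runs of GAA units in alternating orientation, called heat shock elements.

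Promoter stretches are shown for the members that were called in a comparison with NC1 or between its parts, and for HSP90AA1 beside HSP90AB1. For DNAJB1, HSPA8, HSP90AB1 and HSP90AA1 they lie before an annotated start that is inside the full extent of the gene. For HSP90AB1 it is the last of 3 annotated starts, and the windows of the others held no heat shock element. Sequences are from RefSeq on GRCh38.p14, written 5′ to 3′ on the strand of the gene, and capitals mark the GAA and TTC units that belong to a match of 2 adjacent units (GAANNTTC or TTCNNGAA). The first is chr11:90223050-90223149 on the minus strand, the 100 bases before the start of CHORDC1.
CHORDC1: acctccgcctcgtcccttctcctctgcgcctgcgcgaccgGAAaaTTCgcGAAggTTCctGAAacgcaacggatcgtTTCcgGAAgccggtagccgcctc
The next is chr16:46973675-46973774 on the minus strand, the 100 bases before the start of DNAJA2, in which no 2 adjacent units were found.
DNAJA2: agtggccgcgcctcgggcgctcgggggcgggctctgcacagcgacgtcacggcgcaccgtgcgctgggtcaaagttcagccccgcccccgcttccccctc
For DNAJB1 the stretches are chr19:14518457-14518482 and chr19:14518427-14518452, both on the minus strand.
DNAJB1 upper: gcggggcgGAAggTTCtggagggggc
DNAJB1 lower: gggctctgGAAgcTTCcgccggacgg
For HSPA8 they are chr11:123062345-123062374 and chr11:123062171-123062200 on the minus strand, and for HSP90AB1 they are chr6:44247770-44247798 and chr6:44247823-44247851 on the plus strand.
HSPA8 upper: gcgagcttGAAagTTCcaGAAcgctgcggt
HSPA8 lower: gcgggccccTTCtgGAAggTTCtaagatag
HSP90AB1 upper: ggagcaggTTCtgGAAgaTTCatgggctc
HSP90AB1 lower: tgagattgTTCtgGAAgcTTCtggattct
For HSP90AA1 the stretch is chr14:102087105-102087134 on the minus strand.
HSP90AA1: tcTTCcgGAAggTTCgggaggcTTCtgGAA
The mimic is of miR-138, whose mature 5p strand is given alike for MIR138-1 on chromosome 3 and MIR138-2 on chromosome 16. It is printed to show the seed, bases 2 to 8, in capitals, and the labels do not say which strand the mimic carried.
miR-138-5p: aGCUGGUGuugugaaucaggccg

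Levels are the deposited log2 values of 1 probe set per gene, on which a difference of 1 is a doubling, and they were compared between arrays and not between genes. Array medians lay between 5.09 and 5.16. The targeted gene SIN3A averaged 6.03 ± 0.14 after the siRNA, 6.08 ± 0.16 after the mimic and 6.91 ± 0.36 with NC1 (SD, n = 3, 3 and 6). It also differed within the control, with 7.20 on NC1 4 to 6 and 6.62 on NC1 1 to 3, so that the siRNA difference was -1.18 from NC1 4 to 6 and -0.59 from NC1 1 to 3, and the mimic differences were -1.13 and -0.54, all called lower. The list of 8 airway epithelial markers had a mean level of 7.83 to 7.97 after the siRNA, 7.76 to 7.82 after the mimic and 7.82 to 7.88 with NC1, and none of the 8 was called by limma in the comparisons with all 6 NC1 arrays or of the mimic with the siRNA. By control part, KRT8 was 0.39 higher on NC1 4 to 6 than on NC1 1 to 3 (adjusted p = 0.0402), ELF3 0.38 below NC1 4 to 6 after the siRNA (0.0140) and MUC1 0.73 below NC1 1 to 3 after the mimic (0.0428). The part of these differences in the results was not tested. Among the markers of other cells, 2 of 6 for fibroblasts, 1 of 5 for leukocytes and 0 of 5 for endothelial cells lay over the array's median gene on NC1 arrays, against 8 of 8 for epithelial cells. That position compares probe sets only roughly. On arrays of whole cultures, fewer cells of a kind and less RNA per cell cannot be told apart.

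CHORDC1, DNAJB1 and DNAJA2 were higher after SIN3A siRNA than with NC1, and CHORDC1 was also higher after the miR-138 mimic. The HSC70 and HSP90 genes themselves did not pass the test in either comparison. The levels of HSPA8 and HSP90AB1, but not that of HSP90AA1, were called different between the first and the last 3 NC1 arrays. CHORDC1 was called different there too (0.58, adjusted p = 0.0473, limma), though only in 6 of 18 settings. Calls were made by limma at a threshold of 0.05 on the p-value adjusted by Benjamini-Hochberg over all 18417 genes. After SIN3A siRNA, 3 of the 9 measured members were called higher and 0 lower, where 2.35% of all genes were called higher and 1.66% lower. Their median difference was 0.11 on the log2 scale, against -0.01 over all genes. After the mimic, 1 of 9 was called higher and 0 lower, where 0.641% of all genes were called higher and 0.402% lower, with a median difference of 0.18 for the members and -0.01 for all genes. Without adjustment, 4 members had a p under 0.05 after the siRNA and 5 after the mimic. The share of all genes with such a p was not counted, so these 2 counts have no baseline. The members were chosen with earlier results of these data known, so these counts describe the list and do not test it.

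**Figure D1:**
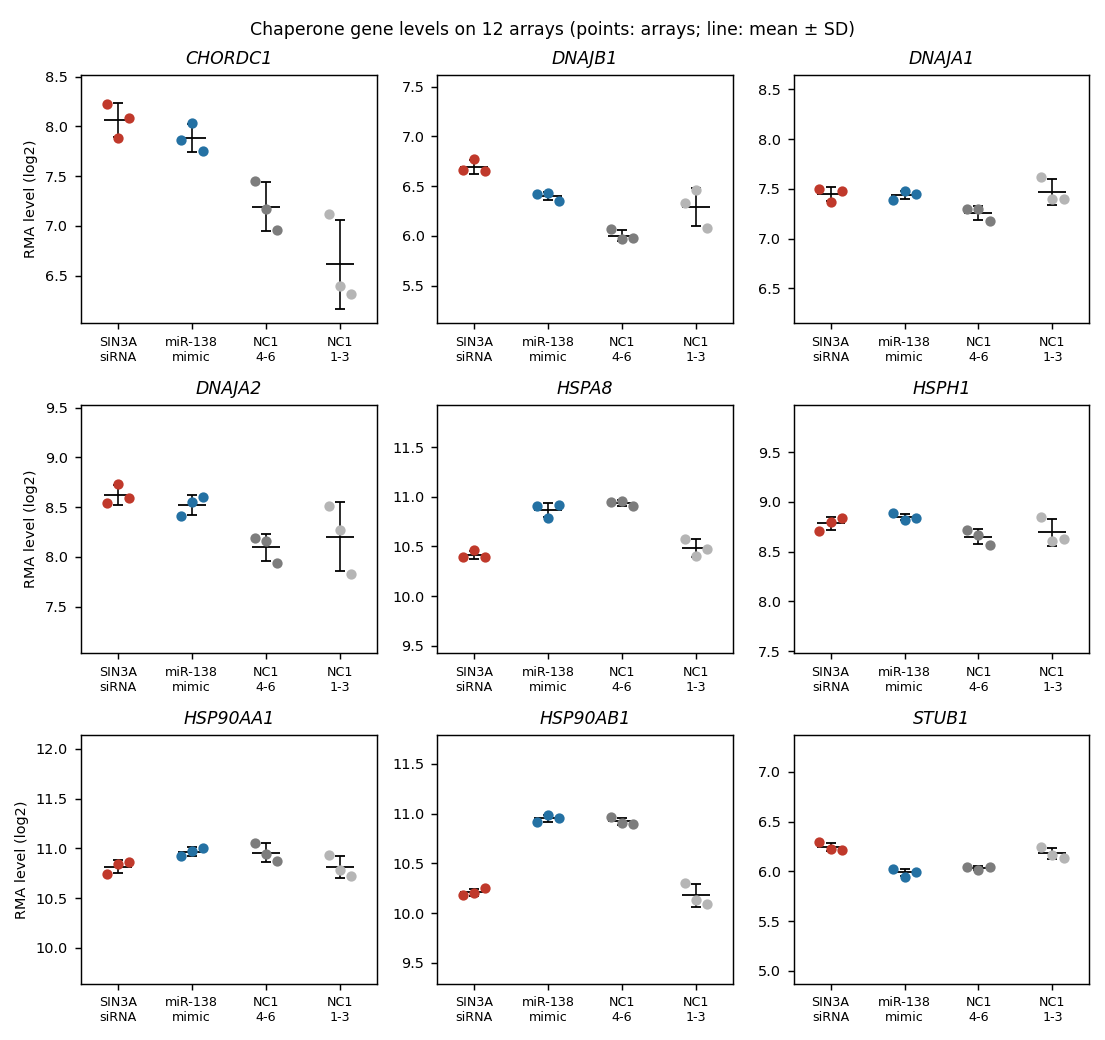
Level of each of the 9 measured genes on every array (log2, 1 panel per gene), by group, with points for arrays and bars for the mean and SD of 3 arrays. CHORDC1 lies above every NC1 array in both treated groups, and HSPA8 and HSP90AB1 divide into a high pair of groups (miR-138 mimic and NC1 4 to 6) and a low pair (SIN3A siRNA and NC1 1 to 3).

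CHORDC1 had the largest differences from NC1 among the members. It encodes an HSP90-binding protein with zinc-binding CHORD domains and a domain resembling the p23 co-chaperone. Its level (probe set 7950983) was 8.22, 7.88 and 8.08 on the SIN3A siRNA arrays, 7.86, 8.03 and 7.76 on the mimic arrays, 7.45, 7.17 and 6.96 on NC1 4 to 6, and 7.12, 6.40 and 6.32 on NC1 1 to 3. Every treated array was above every control array, as for 5.49% of all genes after the siRNA and 3.89% after the mimic, and the siRNA and mimic arrays overlapped. The siRNA difference from all 6 NC1 arrays was 1.16 ± 0.20 on the log2 scale (SE), or 2.23-fold (adjusted p = 0.00702, limma), which ranked 12 by size among the 18417 genes. An exact two-sided permutation test over the arrays gave p = 0.0119, the smallest that the 84 splits of 3 against 6 arrays allow. The mimic difference was 0.98 ± 0.20, or 1.97-fold (adjusted p = 0.0320, limma, exact permutation p = 0.0238).

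The siRNA call for CHORDC1 was kept in every alternative setting run, though its limma adjusted p reached 0.0497 with 1 array left out. Its mimic call was not: it passed in 13 of 22 settings, and it was lost without NC1 2 (adjusted p = 0.0506), NC1 6 (0.0605), any 1 of the siRNA arrays 1, 2 and 3 (0.0538, 0.0520 and 0.0573) or any 1 of the mimic arrays 1, 2 and 3 (0.165, 0.196 and 0.116), and with only the arrays of the 2 groups in the fit (0.0943). In a limma fit with the control in 2 groups of 3, CHORDC1 rose after the mimic by 0.69 over NC1 4 to 6 (adjusted p = 0.0399) and by 1.27 over NC1 1 to 3 (0.000281). After the siRNA it rose by 0.87 over NC1 4 to 6 (0.00354) and by 1.45 over NC1 1 to 3 (0.000221). The size thus depended on the controls, and the direction did not. The rise after the mimic over NC1 4 to 6 passed in 12 of 18 settings, and it was lost without NC1 5 (0.124) or 6 (0.175), without siRNA array 3 (0.0588) or without mimic array 1, 2 or 3 (0.121, 0.178 and 0.0747).

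Among the HSP40 genes, DNAJB1, the class B member whose RNA is heat inducible (probe set 8034837), was at 6.66, 6.77 and 6.65 on the siRNA arrays, 6.42, 6.43 and 6.35 on the mimic arrays, 6.07, 5.97 and 5.97 on NC1 4 to 6, and 6.33, 6.46 and 6.08 on NC1 1 to 3. All siRNA arrays were above all other arrays, while the mimic arrays overlapped NC1 1 to 3. The siRNA difference from NC1 was 0.55 ± 0.11 (SE), or 1.46-fold (adjusted p = 0.0111, limma, exact permutation p = 0.0119), and the mimic difference was 0.25 (adjusted p = 0.367, limma). The siRNA call was lost without siRNA array 2 (adjusted p = 0.0694) or 3 (0.0520). Over NC1 4 to 6 alone the siRNA difference was 0.69 (0.000183) and the mimic difference 0.40 (0.0316), and over NC1 1 to 3 they were 0.40 (0.0228) and 0.11, of which the mimic one did not pass. The rise after the mimic over NC1 4 to 6 was lost without any 1 of the 6 arrays compared (0.0647 to 0.125). The rise after the siRNA over NC1 1 to 3 was lost without NC1 3 (0.0714) or without siRNA array 1, 2 or 3 (0.0536, 0.0974 and 0.0537).

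DNAJA2, a class A HSP40 of the cytosol (probe set 8001185), was at 8.54, 8.73 and 8.60 on the siRNA arrays, 8.41, 8.55 and 8.60 on the mimic arrays, 8.18, 8.16 and 7.94 on NC1 4 to 6, and 8.51, 8.27 and 7.83 on NC1 1 to 3. The siRNA arrays were just above the highest control, NC1 1, and the mimic arrays overlapped it. The siRNA difference was 0.47 ± 0.12 (SE), or 1.39-fold (adjusted p = 0.0443, limma, exact permutation p = 0.0357), and the mimic difference was 0.37 (adjusted p = 0.206, limma).

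The siRNA call for DNAJA2 rested on the controls and on single arrays, since it passed in 9 of 22 settings. Over NC1 1 to 3 alone the difference was 0.42 (adjusted p = 0.0897), over NC1 4 to 6 it was 0.53 (0.0182). The call was lost without NC1 4, 5 or 6 (0.0651, 0.0705 and 0.0835), any 1 of the siRNA arrays 1, 2 and 3 (0.103, 0.197 and 0.147) or any 1 of the mimic arrays 1, 2 and 3 (0.0597, 0.0657 and 0.0643). The rise over NC1 4 to 6 was lost without NC1 6 (0.0785) or without siRNA array 2 (0.0800) or 3 (0.0518). DNAJA2 passed over NC1 1 to 3 without NC1 1, after the siRNA (0.0145) and after the mimic (0.0274). DNAJA1, the other class A member and a partner of HSC70 in CFTR folding, was at 7.37 to 7.50 on the siRNA arrays, 7.39 to 7.48 on the mimic arrays and 7.18 to 7.62 on NC1, and both differences from NC1 were 0.08 (adjusted p = 0.735 after the siRNA and 0.839 after the mimic).

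HSPA8 is the constitutive HSC70 that receives clients from the HSP40s. Its level (probe set 7952325) was 10.39, 10.47 and 10.39 on the siRNA arrays, 10.91, 10.79 and 10.91 on the mimic arrays, 10.95, 10.96 and 10.91 on NC1 4 to 6, and 10.58, 10.40 and 10.47 on NC1 1 to 3. The mimic arrays thus lay with NC1 4 to 6 and the siRNA arrays with NC1 1 to 3. Against all 6 NC1 arrays the siRNA difference was -0.29 ± 0.12 (SE, adjusted p = 0.247, limma) and the mimic difference 0.16 (0.717). The siRNA difference was -0.52 (0.000555) from NC1 4 to 6 but -0.07 (0.727) from NC1 1 to 3, and the mimic difference was -0.07 (0.894) from NC1 4 to 6 but 0.39 (0.00774) from NC1 1 to 3. With array weights, the siRNA difference from NC1 was -0.37 and passed (0.0405).

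HSP90AB1, the constitutive HSP90, split in the same way and further. It (probe set 8119993) was at 10.18, 10.20 and 10.25 on the siRNA arrays, 10.92, 10.99 and 10.96 on the mimic arrays, 10.97, 10.91 and 10.90 on NC1 4 to 6, and 10.31, 10.14 and 10.09 on NC1 1 to 3. No array of the high groups overlapped any array of the low groups. Against all 6 NC1 arrays neither the siRNA difference of -0.34 ± 0.18 (adjusted p = 0.397) nor the mimic difference of 0.40 ± 0.18 (0.421) passed in limma. The siRNA difference was -0.71 (3.3e-05) from NC1 4 to 6 and 0.03 (0.883) from NC1 1 to 3. The mimic difference was 0.03 (0.966) from NC1 4 to 6 and 0.78 (3.1e-05) from NC1 1 to 3.

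HSP90AA1, the heat-inducible HSP90, covered a narrower range, with 10.74, 10.84 and 10.86 on the siRNA arrays, 10.92, 10.97 and 11.01 on the mimic arrays, and NC1 arrays from 10.72 to 11.06 with a median of 10.90. Its differences from NC1 were -0.07 (adjusted p = 0.762) after the siRNA and 0.08 (0.800) after the mimic, and both treated groups overlapped the control. HSPH1, the HSP110 that exchanges nucleotide on HSP70, lay at 8.71 to 8.84 on the siRNA arrays, 8.82 to 8.89 on the mimic arrays and 8.57 to 8.85 on NC1. Its differences were 0.11 (0.528) and 0.18 (0.392) for the siRNA and the mimic, and neither passed.

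STUB1, which encodes CHIP, a ubiquitin ligase that docks on HSP70 and HSP90, had its high and low pairs of groups the other way round from HSPA8, over a small range. It (probe set 7992021) was at 6.29, 6.23 and 6.21 on the siRNA arrays, 6.02, 5.95 and 6.00 on the mimic arrays, 6.05, 6.01 and 6.04 on NC1 4 to 6, and 6.24, 6.17 and 6.14 on NC1 1 to 3. Here the siRNA arrays and NC1 1 to 3 were the high groups. The differences from NC1, 0.14 after the siRNA and -0.12 after the mimic, did not pass (adjusted p = 0.396 and 0.610, limma).

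The 2 parts of the control were then compared with each other. CHORDC1, HSPA8 and HSP90AB1 were called higher on NC1 4 to 6 than on NC1 1 to 3, 3 of 9 members with 0 lower, where 6.86% of all genes were called higher and 3.18% lower. The differences were 0.74 for HSP90AB1 (adjusted p = 2.8e-05, limma), 0.45 for HSPA8 (0.00190) and 0.58 for CHORDC1 (0.0473). HSPA8 and HSP90AB1 had every NC1 4 to 6 array above every NC1 1 to 3 array, as 12.0% of all genes did. CHORDC1 was the uncertain one, since its arrays overlapped between the 2 parts and it was called in 6 of 18 settings, against 18 of 18 for each of HSPA8 and HSP90AB1. Its adjusted p without 1 array reached 0.179 without NC1 3 and 0.216 without NC1 4. DNAJB1, DNAJA1 and STUB1 differed by -0.29, -0.21 and -0.15, with every NC1 4 to 6 array below every NC1 1 to 3 array, as for 10.4% of all genes, and none of these passed (0.0766, 0.160 and 0.280). After a second quantile normalization DNAJB1 (0.0254) and DNAJA1 (0.0136) passed and CHORDC1 did not (0.0611), and without NC1 3 DNAJB1 passed (0.0123). An exact test of 3 against 3 arrays cannot go below p = 0.1.

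Against the parts of the control taken singly, the counts of members called differed. After the siRNA, 3 members were higher and 2 lower than NC1 4 to 6, where 5.16% of all genes were called higher and 6.28% lower. Over NC1 1 to 3, 2 were higher and 0 lower, where 3.66% were called higher and 2.04% lower. After the mimic, 2 were higher and 0 lower than NC1 4 to 6, where 1.59% of all genes were called higher and 1.89% lower. Over NC1 1 to 3, 3 were higher and 0 lower, where 6.01% were called higher and 2.54% lower. The siRNA and mimic comparisons share these control arrays. CHORDC1 was the member called in all 4, with DNAJB1 called in 3 of them. Nothing in the labels says how the NC1 arrays were divided between experiments, and whether the split reflects culture, scan or another factor was not tested.

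**Figure D2:**
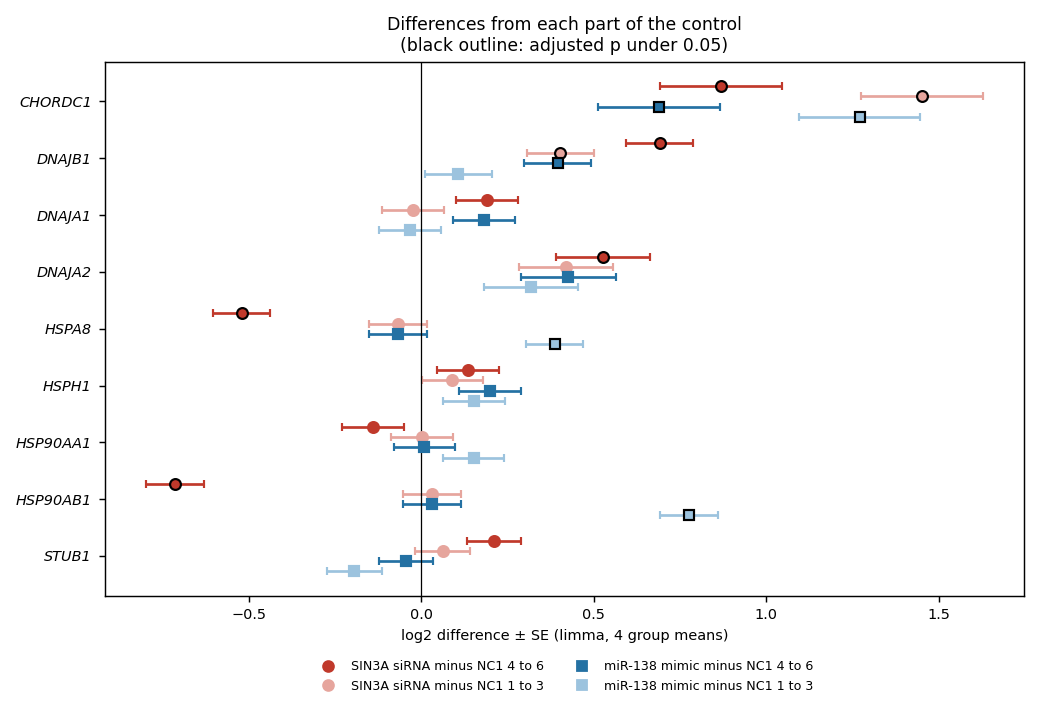
Difference of each member from each part of the control (log2, x axis; genes down the page), with points for SIN3A siRNA and miR-138 mimic against NC1 4 to 6 and NC1 1 to 3, horizontal bars for 1 SE and a black outline for an adjusted p under 0.05. CHORDC1 lies right of 0 for all 4 points, while HSPA8 and HSP90AB1 are near 0 for 1 part of the control and 0.39 to 0.78 in size for the other.

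Between the treated groups, the mimic against the siRNA, limma called 0 of the 9 members, where 1.57% of all genes were called. An unadjusted p under 0.05 was found for 4 members, and the share of all genes with such a p was not counted. The mimic arrays lay above all siRNA arrays for HSP90AB1, HSPA8 and HSP90AA1, where 13.3% of all genes did so, and below them for DNAJB1 and STUB1, where 13.1% did. The differences were 0.74 ± 0.21 for HSP90AB1 (SE, adjusted p = 0.0929), 0.45 ± 0.14 for HSPA8 (0.136) and -0.26 ± 0.08 for STUB1 (0.161). CHORDC1 differed by -0.18, with a 95% interval of -0.68 to 0.32.

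This comparison turned on the fit. In a fit of only the 6 arrays of these groups, 3 members passed: HSP90AB1 (adjusted p = 0.000459), HSPA8 (0.00617) and DNAJB1 (0.0380). That fit called 8% of all genes, against 1.57% in the fit of all 12 arrays. When NC1 1 to 3 and the siRNA were taken as 1 set and NC1 4 to 6 and the mimic as another, so that each treated group was set against the controls of its own set, the differences became -0.00 for HSP90AB1, 0.00 for HSPA8 and 0.01 for HSP90AA1, and -0.76 ± 0.25 for CHORDC1 (adjusted p = 0.156). That grouping follows the order in which the labels list the arrays, and it is not stated by them.

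Across the 12 arrays the members fell into groups of like pattern, given here as a description since the arrays share treatments and controls. HSPA8 and HSP90AB1 followed each other most closely (Pearson r = 0.96, Spearman rho = 0.75), and HSP90AA1 went with both (r = 0.78 and 0.81). STUB1 ran opposite to HSP90AB1 and HSPA8 (r = -0.89 and -0.86). CHORDC1, DNAJA2, DNAJB1 and HSPH1 formed another set, with r from 0.55 to 0.84 between them, and CHORDC1 had an r of 0.06 with HSPA8. The edge of this set was not sharp, and DNAJB1 with HSPH1 had a rho of 0.30. DNAJA1 had an r of 0.56, 0.61 and 0.63 with DNAJB1, DNAJA2 and HSPH1, and of 0.30 with CHORDC1.

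With the mean of each of the 4 groups removed, the pattern changed. The r of HSPA8 with HSP90AB1 was then 0.39, and that of HSPA8 with STUB1 was 0.52, while that of CHORDC1 with DNAJA1 was 0.92 and that of HSP90AA1 with HSP90AB1 was 0.88. Within the control, NC1 1 was the highest of NC1 1 to 3 for 8 of the 9 members, and NC1 4 was the highest of NC1 4 to 6 for 8 of 9. NC1 3 and NC1 6 were the lowest of their 3 arrays for 7 members each. This order was counted for the members only and not over all genes, so it cannot be read as particular to them.

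**Figure D3:**
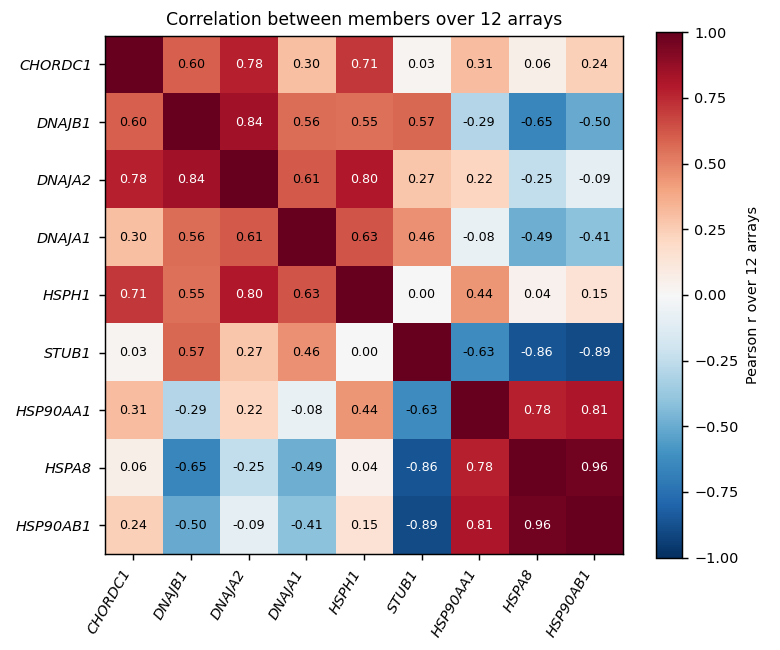
Pearson r between the levels of each pair of the 9 members over the 12 arrays (colour scale from -1 to 1, value printed in each square). HSPA8, HSP90AB1 and HSP90AA1 form a block with r of 0.78 to 0.96, STUB1 is opposite to it, and CHORDC1, DNAJB1, DNAJA2 and HSPH1 form another.

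The genes whose levels were most like those of CHORDC1 over the 12 arrays were TOMM70 (r = 0.97), FKBP14 (0.96), LYSMD3 (0.96), FAM91A1 (0.96) and DYNLT3 (0.95). For HSP90AA1 they were ARFGEF1 (0.95), PSME3IP1 (0.94), PTK2 (0.94), TMED10P1 (0.94) and TMED10 (0.94), of which TMED10P1 is a pseudogene copy of TMED10 and their signals may not be separable. No other member was among those 5 in either case. HSP90AB1 ranked 282 and HSPA8 446 among the 18416 other genes by likeness to HSP90AA1, and DNAJA2 ranked 427 and HSPH1 796 by likeness to CHORDC1.

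The rest of the chaperone network was read from 9 lists that hold 92 genes, 83 of them measured. After the siRNA, 5 of the 83 were called higher and 3 lower, and after the mimic 1 was higher and 0 lower, where 4.01% and 1.04% of all genes were called. These counts depended on the control part. After the siRNA, 11 were higher and 14 lower than NC1 4 to 6, where 5.16% of all genes were called higher and 6.28% lower. Against NC1 1 to 3, 6 were higher and 2 lower, where all genes gave 3.66% and 2.04%. After the mimic, 5 were higher and 0 lower than NC1 4 to 6, where all genes gave 1.59% and 1.89%. Against NC1 1 to 3, 16 were higher and 2 lower, where all genes gave 6.01% and 2.54%. Between the control parts, 15 were higher and 5 lower on NC1 4 to 6, where all genes gave 6.86% and 3.18%. The other HSP70 and HSP110 genes gave 0 calls of 8 in either comparison, with medians of 0.01 after the siRNA and 0.03 after the mimic. They include the strictly stress-inducible HSPA6, with -0.15 after the siRNA and 0.06 after the mimic, and HSPA13, a microsomal HSP70 relative, with 0.57 after the mimic (adjusted p = 0.0527). HSPA1A and HSPA1B, the main inducible HSP70 genes, were not read because their probe set carried several symbols.

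The nucleotide exchange factors (0 of 7), the small heat shock proteins (0 of 6) and the mitochondrial chaperones (0 of 8) gave no calls in either comparison with all 6 NC1 arrays. Nor did the heat shock factor list (0 of 4), read through HSF1, HSF4 and the binding proteins HSF2BP and HSBP1. Among the genes of these lists, BAG3, an exchange factor that is itself a heat shock target, differed by 0.05 after the siRNA and 0.12 after the mimic. HSPB1, which encodes HSP27, differed by 0.34 and -0.12, and HSF1, the heat shock regulator, by 0.04 and -0.05. By control part, HSPB1 was called higher after the siRNA over NC1 4 to 6 (0.58, adjusted p = 0.00257, limma) but not over NC1 1 to 3. It was called lower on NC1 4 to 6 than on NC1 1 to 3 (-0.47, 0.0127). The list medians were within 0.18 of 0 in all these lists.

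Partners of the members gave a few calls after the siRNA. Of 13 measured HSP90 co-chaperones, TOMM34, which links HSP70 and HSP90 through its TPR domains, rose by 0.58 ± 0.08 (SE, adjusted p = 0.00236, limma), with levels of 7.41, 7.49 and 7.30 on the siRNA arrays and of 6.71 to 7.02 on NC1 arrays. It was 0.20 higher after the mimic, which did not pass (0.362). Of 12 other J-domain genes, DNAJC2, a ribosome-bound J protein, rose by 0.42 (0.0464), with 0.56 over NC1 4 to 6 (0.00161) and 0.28 over NC1 1 to 3, where it did not pass (0.144). In the chaperonin and prefoldin list, 3 of 14 genes rose after the siRNA, where 2.35% of all genes were called higher. All 3 were prefoldin subunits, which carry new actin and tubulin to the chaperonin: PFDN4 by 0.80 (0.00236), PFDN2 by 0.48 (0.0146) and PFDN5 by 0.34 (0.0468). TOMM34, PFDN4 and PFDN2 were called over each part of the control, and PFDN5 was not called over NC1 1 to 3 (0.101). The other prefoldin subunits of the list were not called after the siRNA, with PFDN1 at 0.21, PFDN6 at 0.06 and VBP1 at -0.32. PFDN6 and VBP1 were named after their values were seen. The median of that list was 0.01 after the siRNA, and none of its genes was called after the mimic against all 6 NC1 arrays. Over NC1 1 to 3 the mimic gave 4 of 14 higher (6.01% of all genes), and over NC1 4 to 6 it gave 0. Between the control parts, 3 of 14 were higher on NC1 4 to 6 (6.86%). The siRNA gave 3 higher (5.16%) and 2 lower (6.28%) against NC1 4 to 6, and 2 higher (3.66%) and 0 lower (2.04%) against NC1 1 to 3.

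The endoplasmic reticulum list gave calls in opposite directions in the 2 treatments. After the siRNA, 3 of 11 genes fell, with a median of -0.26: CANX, the lectin chaperone calnexin, by 0.62 on the log2 scale, DNAJC3 by 0.53 and HSPA5, the HSP70 of the reticulum known as BiP, by 0.50. After the mimic, HSPA5 rose by 0.56 (adjusted p = 0.0233, limma) and none of the other 10 was called, with a list median of 0.17. Over all genes, 1.66% were called lower after the siRNA and 0.641% higher after the mimic. The mimic was higher than the siRNA for 3 of 11, with HSPA5 by 1.06 (0.00112), where 1.57% of all genes were called in either direction. The list also split the control, with a median of 0.33. On NC1 4 to 6, 6 genes were higher (6.86% of all genes) and 1 lower (3.18%) than on NC1 1 to 3.

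Against NC1 4 to 6 the siRNA gave 2 higher (5.16% of all genes) and 7 lower (6.28%), with a median of -0.50. Against NC1 1 to 3 it gave 0 higher (3.66%) and 2 lower (2.04%), with a median of -0.10. The mimic gave 1 higher (1.59%) and 0 lower (1.89%) against NC1 4 to 6, with a median of 0.05. Against NC1 1 to 3 it gave 5 higher (6.01%) and 0 lower (2.54%), with a median of 0.26. HSPA5 passed in all 4, with -0.67 and -0.33 after the siRNA and 0.39 and 0.72 after the mimic for NC1 4 to 6 and NC1 1 to 3. CANX fell against both parts after the siRNA, and DNAJC3 did not pass against NC1 1 to 3 (-0.31, adjusted p = 0.0968).

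**Figure D4:**
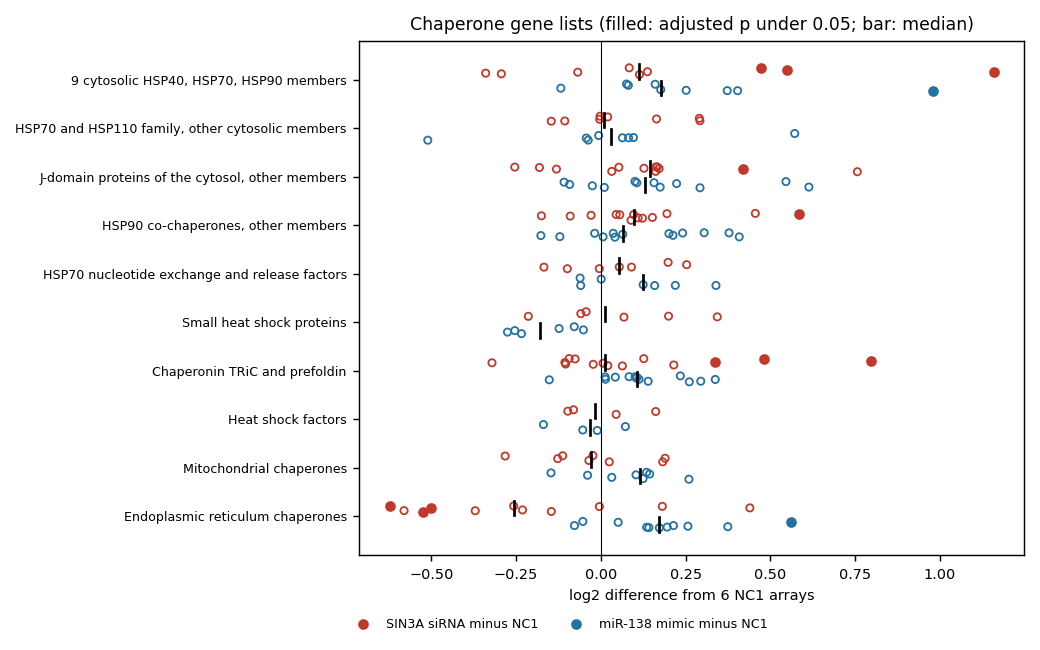
Difference from the 6 NC1 arrays for each gene (log2, x axis) of the 9 members and of the 9 chaperone lists, with SIN3A siRNA above and miR-138 mimic below in each row, filled points for an adjusted p under 0.05 and black bars for the list median. CHORDC1 is the point farthest to the right in both colours, the prefoldin calls lie right of 0 and the reticulum calls after the siRNA lie left of it.

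Heat shock elements were searched in windows from 250 bases before to 50 after each annotated start, which RefSeq gave for 9 of the 10 members (15 windows), while STUB1 had none. The search used GAANNTTC and TTCNNGAA for 2 units, which read the same on both strands, and the same followed by NNGAA or NNTTC, so that the units alternate, for 3 units. The 2 forms of 3 units are each other's reverse complement, and overlapping matches were counted. A match of 2 units was found in 6 of the 9 members, against 16.2% of 27305 genes, and of 3 units in 5 of 9 (CHORDC1, DNAJA1, HSPA8, HSP90AA1 and HSP90AB1), against 0.608% of genes. CHORDC1 held a run of 5 units that began 60 bases before its start, printed above, and 4 of 27305 genes held a run that long. DNAJB1 held pairs of units only, DNAJA2, HSPH1 and AHSA1 held none, and the CCAAT box, searched as CCAAT or ATTGG, was in 3 of 9 members against 39.7% of genes.

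Of the 3 members that rose after the siRNA, CHORDC1 held 3 units or more, DNAJB1 held 2 and DNAJA2 none in its window. HSPA8, HSP90AA1, HSP90AB1 and DNAJA1, with 3 units each, were not called against all 6 NC1 arrays. Of the 166 genes with 3 units, 80 were measured, and 2 were called higher (CHORDC1 and COMMD1) and 3 lower (MAP2, FAM149A and RBM23) after the siRNA, or 6.25% against 4.01% of all genes. After the mimic, 1 was called higher (CHORDC1) and 1 lower (FAM149A), or 2.50% against 1.04% of all genes. Without the members, 75 genes remained, of which 1 was higher and 3 lower after the siRNA (5.33%), and 0 higher and 1 lower after the mimic (1.33%). COMMD1, MAP2, FAM149A and RBM23 were named after their values were seen. A match describes letters in the window and not binding of the factor.

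**Figure D5:**
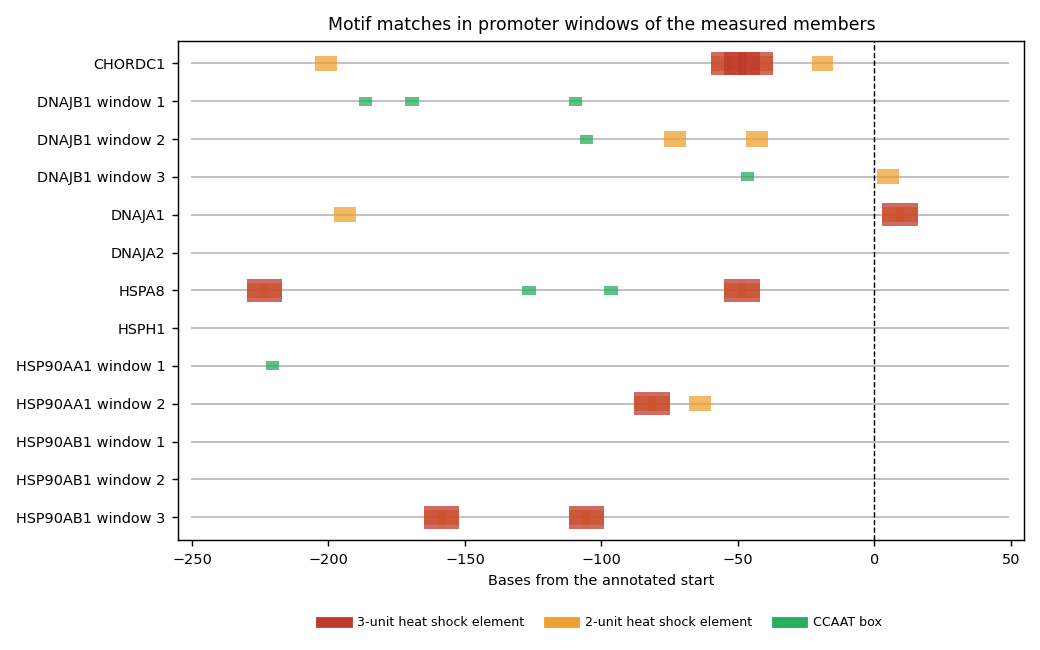
Positions of heat shock elements of 2 and 3 units and of CCAAT boxes in the promoter windows of the measured members (x axis, bases from the annotated start, 1 row per window). CHORDC1 shows the longest run, 5 units starting 60 bases before the start, and DNAJA2 and HSPH1 show no match.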

How the data were processed

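The authors deposited log2 values for 33297 probe sets on 12 arrays, made with RMA and Partek 6.3 per the submitters' processing notes, which do not say which step each did. These log2 values were used as deposited. A symbol was given alone for 19460 probe sets, with others for 1754 and not at all for 12083. The lone-symbol probe set with the highest mean over the 12 arrays stood for each of 18417 genes.

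Groups were fitted with limma 3.58.1 in R 4.3.3 (lmFit and eBayes). All 12 arrays entered with 3 group means (9 residual degrees of freedom), and a second fit took NC1 1 to 3 and NC1 4 to 6 apart (8). P-values were adjusted by Benjamini-Hochberg over all genes. Arrays carry no counts, so their number limits the precision, and the median SE of a difference from NC1 was 0.10. The fit was tested on simulated data. Named genes were all members, up to 4 genes of each list with the smallest adjusted p against NC1, and the 5 genes most like CHORDC1 and HSP90AA1. Members, lists and tests were chosen with earlier results of these data known. Control arrays, array sets, blocks, normalization, filters, variance models, array weights and left-out arrays were tried as alternatives.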

Additional observations from a re-analysis of the deposited data

How the results depend on the processing

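Of the differences of single members under the alternatives, 1318 stayed on their side of the threshold, 30 gained a call and 56 lost one. The sign turned in 34 of the 1404, none of them of a difference called in the fit reported. The count of members called after the siRNA was 3, and 5 over NC1 4 to 6. After the mimic it was 1, and 3 over NC1 1 to 3, 2 over NC1 4 to 6, 2 with the array sets as a block and 0 in a fit of only the arrays compared. For differences from NC1, the array set block repeats the result with the controls of that set alone. Its count after the mimic is thus the one over NC1 4 to 6. Counts out of 22 settings include this result under both names. For the mimic against the siRNA it was 0, and 3 both with array weights and with only those arrays. Over NC1 1 to 3 the siRNA gave 2, and 1 with only the arrays compared. With the replicate number as a block it was 2 for the siRNA, 3 for the mimic and 2 for the mimic against the siRNA. Numbers 4 to 6 occur only in NC1, so this fit also leaves NC1 4 to 6 out of the differences, which equal those from NC1 1 to 3, and its counts do not show the block alone. Arrays with the same number did not deviate together, with correlations of -0.10 to 0.03 and 0 of 9 pairs over 0.1. These pairs cover numbers 1 to 3 only. Whether arrays were paired in another way, such as the mimic arrays with NC1 4 to 6, was not tested. Leaving out 1 array in turn gave 1 to 3 members after the siRNA, 0 to 1 after the mimic, and 0 to 1 for the mimic against the siRNA, where HSP90AB1 passed without NC1 3 (adjusted p = 0.0461). It gave 1 to 3 and 4 to 5 for the siRNA over NC1 1 to 3 and NC1 4 to 6, 3 to 4 and 0 to 3 for the mimic over NC1 1 to 3 and NC1 4 to 6, and 2 to 3 between the control parts. Over all genes, 739 were called after the siRNA, against 2106 over NC1 4 to 6, 1449 with array weights and 357 with only the arrays compared. After the mimic 192 were called, against 1575 over NC1 1 to 3, 642 over NC1 4 to 6, 1281 with the replicate block, 576 with array weights and 92 with only the arrays compared. For the mimic against the siRNA 289 were called, against 830 with the replicate block, 1396 with array weights and 1474 with only those arrays. Apart from the settings built from fewer arrays, the cause of these changes was not tested.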

Other observations

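DNAJB6, a J-domain protein known for holding aggregation-prone chains in solution, split the control more widely than any member. It was named after its values were seen. Its level was 8.07, 8.07 and 8.20 on the SIN3A siRNA arrays, 7.95, 7.98 and 7.97 on the miR-138 mimic arrays, 8.19, 8.06 and 8.01 on NC1 4 to 6, and 6.69, 6.72 and 6.46 on NC1 1 to 3. The other 9 arrays all lay above NC1 1 to 3. NC1 4 to 6 exceeded NC1 1 to 3 by 1.46 ± 0.09 (SE, adjusted p = 5.59e-08, limma), while the siRNA and the mimic differed from NC1 4 to 6 by 0.03 and -0.12. Against all 6 NC1 arrays neither treatment passed for this gene (adjusted p = 0.281 and 0.538). HSPA8 and HSP90AB1 divided otherwise, with the siRNA arrays beside NC1 1 to 3.

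The ranks, differences and calls above rest on 3 treated arrays a group in 1 cell line. RNA levels of AHSA1 were not analysed here, and protein was not measured.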
